A study of Mus musculus with 4 samples.

Results

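The genes described here control entry into and exit from the cell cycle in G1. They are the D-type cyclins Ccnd1, Ccnd2 and Ccnd3, the cyclin-dependent kinases Cdk4, Cdk6 and Cdk2, the kinase inhibitors Cdkn1b, Cdkn1c and Cdkn2c, and the retinoblastoma gene Rb1. They were chosen by name for this role, with earlier results of these data known. They are 10 of the 19937 genes that the arrays measured with a probe set of their own. Each gene was read from its brightest probe set, and all 10 lay above the level below which genes were not tested. The cells were primary neurospheres of the subventricular zone from C57BL/6 mice aged 9 to 12 weeks, expanded with fibroblast growth factor-2 and epidermal growth factor. All cells received non-targeting control siRNAs and, 4 h later, Pax6 viral particles, Pax6 being a neurogenic transcription factor. Cells were kept for 5 h with the virus and 36 h in suspension, then plated on laminin without growth factors for the last 10 h. The control group of 2 arrays had 0.01% DMSO from the virus step on, after the siRNA step. The other group of 2 arrays had 100 nM olaparib, which blocks the DNA repair enzymes PARP1 and PARP2, at the same DMSO level and over the same steps. Each second array is labelled a biological replicate, and nothing says whether it came from other animals. The share of cells that took up the virus is not given, and every array measured the whole culture.

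In G1, growth factor signals raise D-type cyclins, which bind Cdk4 or Cdk6 and begin to phosphorylate the retinoblastoma protein. Cyclin E with Cdk2 completes that step, E2F factors are released, and genes of DNA replication are switched on. INK4 proteins such as p18, from Cdkn2c, bind Cdk4 and Cdk6 alone, while p27 and p57, from Cdkn1b and Cdkn1c, bind assembled cyclin-kinase complexes and are known for cell cycle exit in neural progenitors.

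The values are log2 signals, and a change is the olaparib mean minus the DMSO mean. Array medians lay between 6.60 and 6.68. Markers of neural stem cells and astrocytes were bright (mean log2 value 10.31 and 10.32 with DMSO, 10.01 and 10.21 with olaparib, over 10 genes), and 2 of the 10, Gfap and Aqp4, fell. Of 10 markers of neuroblasts and neurons, 8 were tested and 3 fell, namely Dcx, Map2 and Nrep, while Stmn2 and Sp8 lay below the level tested. The mean of these 10 was 8.02 on both DMSO arrays and 7.59 and 7.67 with olaparib. That mean includes Nrep, whose change of -1.44 was the most negative of all genes tested. The list was chosen with earlier results of these data known. Microglial, vascular and ependymal markers had medians of 6.41, 6.41 and 6.33, no higher than the median of 6.55 for 12 genes of unrelated tissues, and none of those tested passed. The highest vascular and ependymal markers, at 8.13 and 7.34, did lie above the highest unrelated gene, at 6.86. The highest microglial marker, at 6.65, did not. Of 7 oligodendrocyte lineage markers tested, Cspg4 rose, and the mean was 7.77 to 7.81 on every array. Without DMSO replicate 1, without DMSO replicate 2 and with all probe sets in the fit, the calls of Map2 (limma adjusted p = 0.120, 0.317 and 0.162) and Cspg4 (0.0791, 0.186 and 0.154) were lost. Those of Gfap and Aqp4 were lost with all probe sets in the fit (0.0658 and 0.0700). A shift in the mix of cells and a change of RNA per cell cannot be told apart in such cultures, and the part of these marker changes in the results that follow was not tested.

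Of the 10 genes, 1 rose, 0 fell and 9 did not pass an adjusted p of 0.05 in limma. Over all 13956 genes tested, 2.84% rose and 3.37% fell, or 6.22% in either direction. Cyclin D1 was the gene that rose, by 1.54-fold. Its kinase partner Cdk4 was 0.35 lower on the log2 scale but did not pass. Cdkn1b, which encodes p27, was measured by 2 probe sets that differed in direction. The other genes had changes between -0.12 and 0.16. The median change of the 10 was 0.10, against 0.0013 over all genes tested. In 7 of the 10 the groups did not overlap, 4 higher and 3 lower with olaparib. Over all genes tested, 47.1% were separated, 23.2% higher and 23.9% lower. An unadjusted p under 0.05 was found for 3 of the 10 (Ccnd1, Cdk4 and Cdkn1b) and for 19.1% of all genes, and a positive change for 6 of the 10 and for 50.5% of all genes. With 1 array left out, 0 of the 10 passed without DMSO replicate 1 or without DMSO replicate 2, while 2 passed without olaparib replicate 1 and 3 without olaparib replicate 2. When every probe set above the level tested entered 1 fit, 0 of the 10 and 0.086% of all genes passed. These probe sets then shared both the variance estimate and the p-value adjustment. More tests were adjusted for, and the variance prior of limma was worth 5.25 degrees of freedom in place of 18.1. Unadjusted p-values differed too, and that of Ccnd1 in limma was 0.00201 in place of 7.33e-05. The same fit is meant wherever all probe sets are said to share the variance estimate. The median of the 10 was 0.05 without DMSO replicate 1, 0.06 without olaparib replicate 2 and 0.05 under quantile normalization.

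**Figure D1:**
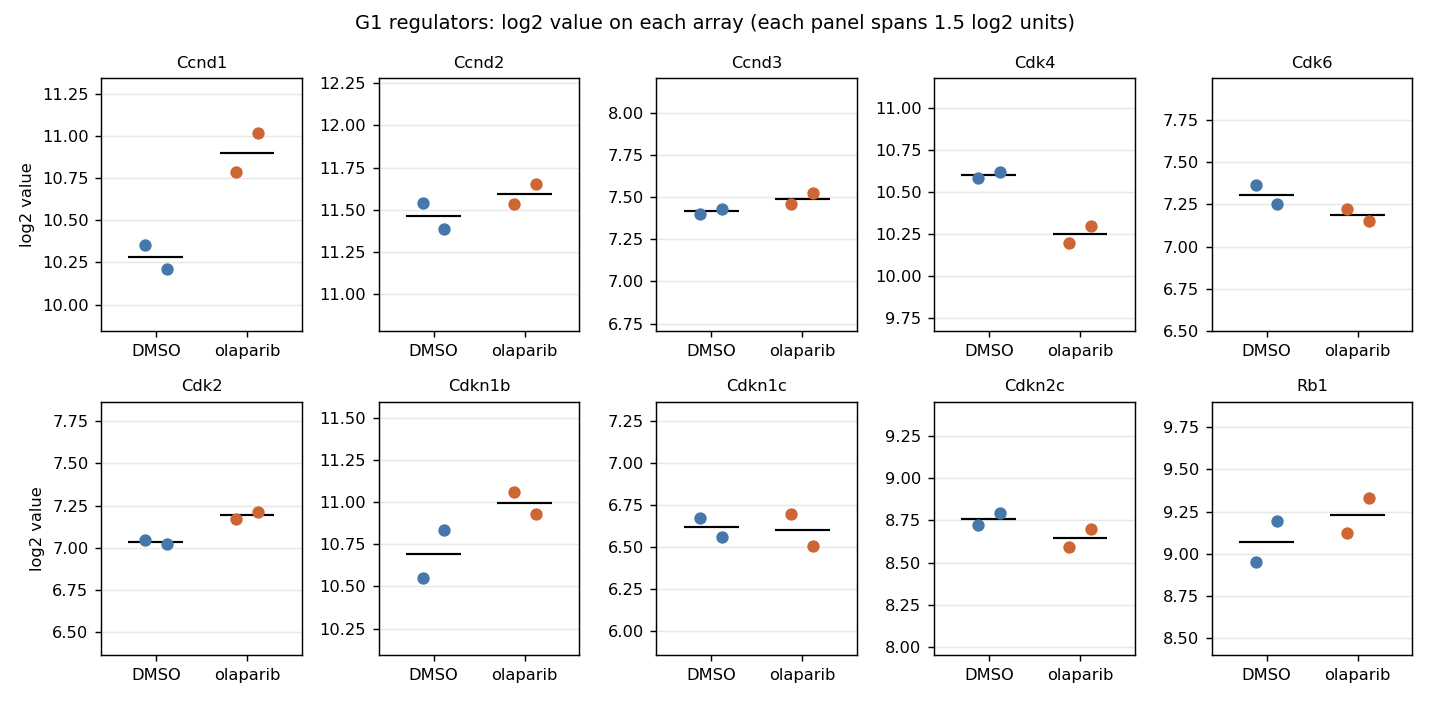
Log2 value (vertical axis) of the 10 G1 regulators on each of the 4 arrays; points are arrays (blue DMSO, orange olaparib), black lines are group means, and every panel spans the same range on the log2 scale. Ccnd1 shows the widest gap between its groups, from 10.35 at most with DMSO to at least 10.78 with olaparib, while the points of Ccnd2, Cdkn1c and Rb1 overlap.

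Ccnd1 (chromosome 7, 144929931 to 144939831, GRCm38.p6) encodes cyclin D1, the D cyclin most directly coupled to growth factor signalling. Its log2 value was 10.35 and 10.21 on the DMSO arrays and 10.78 and 11.02 on the olaparib arrays. Both olaparib values lay above both DMSO values. The group means were 10.28 ± 0.10 with DMSO and 10.90 ± 0.17 with olaparib (SD, n = 2 each). The change was 0.62 (SE 0.12, 95% confidence interval 0.36 to 0.88), a fold of 1.28 to 1.84 (limma adjusted p = 0.00433). With 1 array left out the change was 0.50 to 0.74, and its sign was fixed because the groups did not overlap. Without DMSO replicate 1 or DMSO replicate 2 the adjusted p was 0.0613 and 0.213, and with all probe sets sharing the variance estimate it was 0.125, so that the call was lost in each of these.

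Ccnd2 (chromosome 6, 127125162 to 127152188) encodes cyclin D2, the D cyclin used by many neural progenitors. It read 11.54 and 11.39 with DMSO and 11.54 and 11.65 with olaparib, so the groups overlapped. Its change was 0.13 (95% confidence interval -0.12 to 0.39, limma adjusted p = 0.654), and 0.055 to 0.21 with 1 array left out. Ccnd3 (chromosome 17, 47505051 to 47599689), for cyclin D3, read 7.40 and 7.43 with DMSO and 7.46 and 7.52 with olaparib. Its groups were separated by a small gap, and its change of 0.074 (95% confidence interval -0.094 to 0.24, limma adjusted p = 0.724) did not pass.

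Relative to Ccnd2 on the same array, and set to 0 at the DMSO mean, Ccnd1 was at -0.0055 and 0.0055 on the DMSO arrays and at 0.43 and 0.55 on the olaparib arrays. The rise of Ccnd1 thus exceeded the change of Ccnd2 by 0.49, and that of Ccnd3 by 0.55. In both pairs the groups did not overlap. The exact permutation test of each gave p = 0.333, two-sided, the smallest value this permutation test can give for 2 arrays against 2, so it cannot reach 0.05. Ccnd2 and Ccnd3 differed in change by 0.058 and overlapped (exact p = 1). With Cdk4 and Cdk6, 4 such pairs were compared, and the adjusted exact p was 0.444 or above.

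Cdk4 (chromosome 10, 127063535 to 127067288) encodes the kinase that D cyclins activate in most dividing cells. The 250 bases before its start site, from RefSeq, are shown because Myc proteins are known to regulate Cdk4 through E-boxes, and both Myc and Mycn were measured here. The capitals mark the E-box CACGTG, searched on both strands and overlapping no other motif searched. The window lies at chr10:127063285-127063534 on the plus strand of GRCm38.p6.
Cdk4: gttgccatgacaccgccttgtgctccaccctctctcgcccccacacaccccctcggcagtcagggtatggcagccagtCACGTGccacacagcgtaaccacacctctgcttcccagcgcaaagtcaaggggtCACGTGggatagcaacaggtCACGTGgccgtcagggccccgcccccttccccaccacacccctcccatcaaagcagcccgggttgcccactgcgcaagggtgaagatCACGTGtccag
The window holds 4 E-boxes, ending 166, 112, 92 and 5 bases before the start. Of 32851 promoter windows of this length, 6.02% hold at least 1 and 0.0213% at least 4, and these letters are a match, not a measured binding site.

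The log2 value of Cdk4 was 10.58 and 10.62 with DMSO and 10.20 and 10.30 with olaparib. Its groups did not overlap, with both olaparib arrays lower. The change was -0.35 (SE 0.12, 95% confidence interval -0.60 to -0.11). The interval is unadjusted and lies below 0, but the limma adjusted p over all genes was 0.0839 and the gene was not called. Its change was -0.45 under quantile normalization and -0.42 under cyclic loess. The other alternatives that kept all 4 arrays left the change nearly as it was by design. Among alternatives that kept all 4 arrays, it passed under quantile normalization, cyclic loess and eBayes without a trend. With 1 array left out its change lay between -0.40 and -0.30, and its separated groups fixed the sign. Such fits take their spread from 1 pair of arrays alone, so passes in them are not given for Cdk4, Myc and both Cdkn1b probe sets. Of the Myc genes, Mycn, prominent in neural progenitors, fell from 7.33 and 7.30 to 6.99 and 6.87, a change of -0.38 (SE 0.08, limma adjusted p = 0.00509). Myc read 8.70 and 8.67 with DMSO and 8.89 and 9.27 with olaparib, a change of 0.40 (SE 0.12, limma adjusted p = 0.0520) that just missed the threshold. The call of Mycn was lost without DMSO replicate 1 (adjusted p = 0.0634) and when all probe sets shared the variance estimate (adjusted p = 0.129). Myc was at 0.21 without olaparib replicate 2 and at 0.59 without olaparib replicate 1. The groups of Myc did not overlap, so its sign was fixed in these fits. With all 4 arrays, Myc passed under the filter at the 50th percentile, quantile normalization, cyclic loess, eBayes without a trend, robust eBayes and array weights.

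Cdk6 (chromosome 5, 3341004 to 3531008), the other partner of D cyclins, read 7.36 and 7.25 with DMSO and 7.22 and 7.15 with olaparib. Both olaparib arrays were lower by a narrow margin, and the change of -0.12 (95% confidence interval -0.29 to 0.044) did not pass (limma adjusted p = 0.458). The RefSeq window of Cdk6, at 3343643 to 3343892 on the plus strand, holds 1 E-box. It lies inside the span given for the gene, not before it. Cdk2 (chromosome 10, 128697938 to 128705051), the kinase of cyclins E and A, read 7.05 and 7.02 with DMSO and 7.17 and 7.21 with olaparib. Its replicates lay close together and the groups were separated, but the change of 0.16 (95% confidence interval -0.0022 to 0.32) did not pass (limma adjusted p = 0.271). The 3 kinases therefore held 0 called genes, 1 with a positive and 2 with a negative change.

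**Figure D2:**
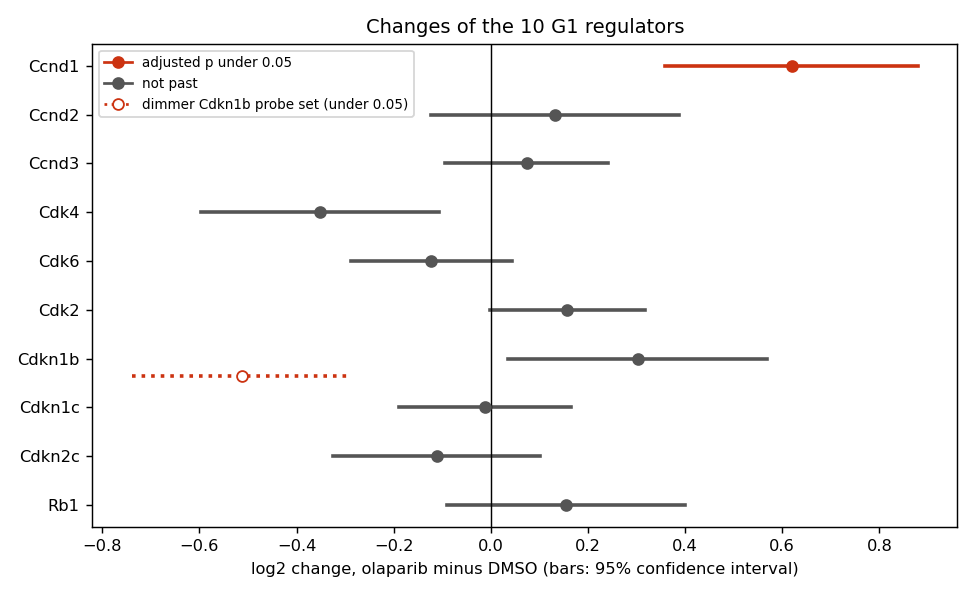
Log2 change, olaparib minus DMSO (horizontal axis), of the 10 G1 regulators with 95% confidence intervals from limma; red marks an adjusted p under 0.05, and the open point with a dotted bar is the dimmer probe set of Cdkn1b. Ccnd1 at 0.62 lies farthest to the right, Cdk4 at -0.35 is the lowest of the 10, and the 2 Cdkn1b probe sets lie on opposite sides of 0.

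Cdkn1b (chromosome 6, 134920401 to 134925525) encodes p27, the inhibitor that accumulates as progenitors leave the cycle. It was the only gene of the 10 with more than 1 probe set. Its brighter probe set, used in the counts above, read 10.55 and 10.84 with DMSO and 11.06 and 10.93 with olaparib. The olaparib values were higher, with a change of 0.30 (SE 0.13, 95% confidence interval 0.035 to 0.57, limma adjusted p = 0.190) that did not pass. Leaving out DMSO replicate 1 gave 0.16, DMSO replicate 2 gave 0.45 and olaparib replicate 1 gave 0.24. Leaving out olaparib replicate 2 gave 0.37, with the spread taken from the DMSO pair alone. As for Cdk4, passes in such fits are not given. The dimmer probe set read 9.10 and 9.25 with DMSO and 8.59 and 8.74 with olaparib. Here both olaparib values were lower, and with this probe set in place of the other the gene fell by 0.51 (SE 0.11, 95% confidence interval -0.74 to -0.29, limma adjusted p = 0.00656). That exchange, made after the disagreement was seen, gives 1 of the 10 genes lower in place of 0.

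The brighter probe set exceeded the dimmer by 1.44 and 1.59 on the DMSO arrays and by 2.47 and 2.19 on the olaparib arrays. The difference widened by 0.82 on the log2 scale and the groups did not overlap (exact permutation test, two-sided, p = 0.333, the smallest possible). Of 589 genes with exactly 2 probe sets above the level tested, 34.6% had probe sets of opposite sign, the median difference between their changes was 0.10, and only Cdkn1b reached 0.82. The platform annotation lists 2 sequence records for the brighter and 6 for the dimmer probe set, of which 1 is shared. Which part of the transcript each one reads was not analysed here. Without DMSO replicate 1 or DMSO replicate 2 the fall on the dimmer probe set had an adjusted p of 0.0538 and 0.235, and it was 0.131 when all probe sets shared the variance estimate. Its change lay between -0.59 and -0.44 with 1 array left out, and passes in those fits are not given here either.

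**Figure D3:**
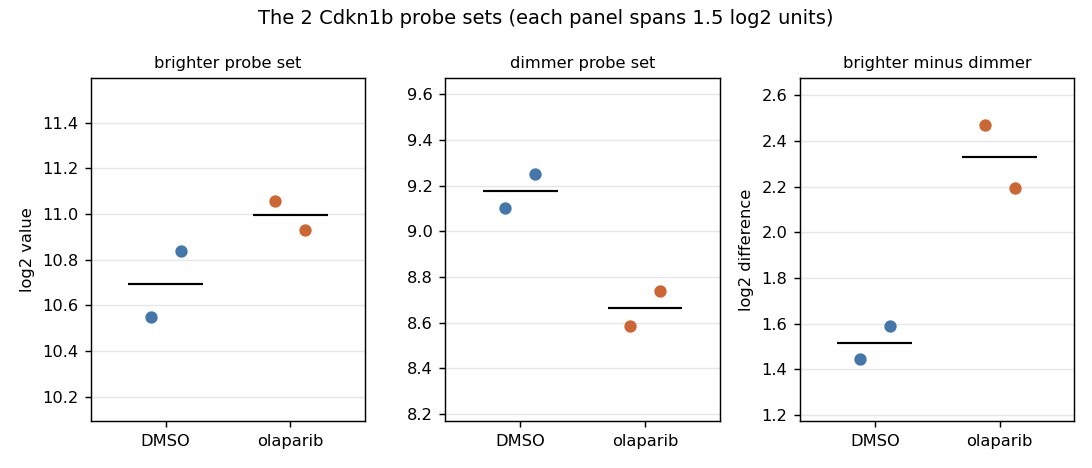
Log2 value (vertical axis) of the brighter and the dimmer Cdkn1b probe set and their difference on each array; points are arrays (blue DMSO, orange olaparib) and black lines group means. The brighter set is higher with olaparib by 0.30, the dimmer set is lower by 0.51, and their difference goes from at most 1.59 to at least 2.19.

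RefSeq gives 1 promoter window for Cdkn1b. Whether both probe sets read transcripts from its start site was not tested. The window of 250 bases at chr6:134920151-134920400, plus strand of GRCm38.p6, is shown with capitals at the CCAAT box, a motif bound by the factor NF-Y and searched on both strands.
Cdkn1b: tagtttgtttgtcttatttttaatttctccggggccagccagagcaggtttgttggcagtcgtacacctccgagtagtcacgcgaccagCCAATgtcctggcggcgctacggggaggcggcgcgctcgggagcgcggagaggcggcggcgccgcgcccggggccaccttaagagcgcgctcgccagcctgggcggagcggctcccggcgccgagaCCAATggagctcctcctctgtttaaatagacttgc
It holds 2 CCAAT boxes, ending 156 and 30 bases before the start, against 10.1% of all windows with at least 2. The FoxO motif GTAAACA and the E2F motif TTTNGCGC were not found in it. They occur in 3.17% and 1.13% of windows.

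Cdkn1c (chromosome 7, 143458339 to 143461059) encodes p57, an imprinted inhibitor of the same family known in quiescent neural stem cells. It read 6.67 and 6.56 with DMSO and 6.70 and 6.51 with olaparib. These values overlap between the groups and lie within the range of the 12 unrelated genes, whose highest was 6.86, so the arrays show little signal for this gene. Its change of -0.013 (95% confidence interval -0.19 to 0.16, limma adjusted p = 0.973) took the other sign when DMSO replicate 1 or olaparib replicate 2 was left out. The other 9 genes lay above 6.86 in both groups. Cdkn2c (chromosome 4, 109660876 to 109666756), for the INK4 protein p18, read 8.72 and 8.79 with DMSO and 8.59 and 8.70 with olaparib. Both olaparib arrays were lower, by a change of -0.11 (95% confidence interval -0.32 to 0.10, limma adjusted p = 0.652) that did not pass. Rb1 (chromosome 14, 73192858 to 73325951), the target of the D cyclin kinases, read 8.95 and 9.20 with DMSO and 9.12 and 9.33 with olaparib. Its replicates differed more than its group means, and the change was 0.15 (95% confidence interval -0.091 to 0.40, limma adjusted p = 0.553). Leaving out DMSO replicate 1 gave 0.032 and leaving out DMSO replicate 2 gave 0.28, while the values were 0.26 and 0.052 with olaparib replicate 1 or 2 left out, and none passed. In the same fits the changes of Ccnd3, Cdk6 and Cdkn2c lay between 0.041 and 0.11, between -0.18 and -0.068 and between -0.16 and -0.058.

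**Figure D4:**
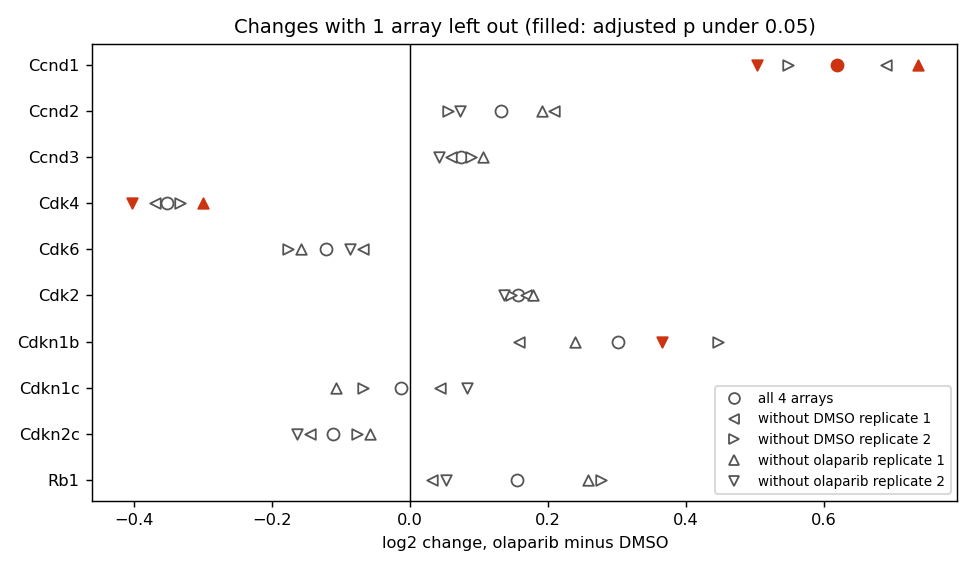
Log2 change, olaparib minus DMSO (horizontal axis), of each G1 regulator with all 4 arrays and with each array left out; filled red symbols have an adjusted p under 0.05. Ccnd1 stays between 0.50 and 0.74 and Cdk4 between -0.40 and -0.30, while Cdkn1c lies on both sides of 0.

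The other regulators of the G1 to S transition formed a list of 34 genes, of which Cdkn1a shares its probe set with another gene and was not analysed here. Of the 33 tested, 3 rose, 1 fell and 29 did not pass, with a median change of 0.08. Ccne2, a cyclin E gene, rose from 6.72 and 6.77 to 7.08 and 7.11 (change 0.35, SE 0.08, limma adjusted p = 0.00797). Its paralog Ccne1 read 6.88 and 6.90 with DMSO and 6.99 and 7.07 with olaparib, a change of 0.14 that did not pass (adjusted p = 0.349 in limma). The DMSO values of Ccne2 lie under the highest unrelated gene, so the size of its rise is less certain. Cdkn2b, which encodes the INK4 inhibitor p15, rose from 8.81 and 8.80 to 9.26 and 9.23 (change 0.44, SE 0.10, limma adjusted p = 0.0140). It was the 1 gene called among the 3 other inhibitors tested. E2f3, an activating E2F factor, rose by 0.34 (SE 0.09, limma adjusted p = 0.0217) on its brighter probe set and had a change of 0.15 (adjusted p = 0.306) on the other. E2f1 was at 0.11 (adjusted p = 0.531). Of the 10 E2F and DP factors, 9 had a positive change. The gene that fell was Mycn. Calls were lost when either DMSO array was left out for Ccne2, Cdkn2b and E2f3. These 3 calls were also lost with all probe sets in the fit (limma adjusted p = 0.133, 0.139 and 0.198). That of Cdkn2b was lost under median centring too. The call of E2f3 was further lost when olaparib replicate 2 was left out, with no filter or with the mean of its probe sets. The list held 0 genes higher with either DMSO array left out, 6 without olaparib replicate 1 and 2 without olaparib replicate 2. The count lower was 0 with DMSO replicate 1 left out, 2 with olaparib replicate 2 left out and 1 with either of the other arrays left out.

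E2F targets of the G1 to S transition numbered 24 tested of 26, of which 3 rose, 0 fell and 21 did not pass, with a median change of 0.10. Rrm2, a subunit of ribonucleotide reductase, rose by 0.37 (SE 0.10), the chromatin assembly gene Chaf1a by 0.28 (SE 0.08) and the histone mRNA binding gene Slbp by 0.28 (SE 0.08), with limma adjusted p of 0.0248, 0.0399 and 0.0486. Slbp was at 0.012 on its other probe set. Pcna, the sliding clamp of DNA polymerase and chosen after its values were seen, was at 0.10 on its brighter and -0.26 on its other probe set, neither past the threshold. Tk1, chosen likewise, was at -0.04 on its brighter and 0.21 on its other probe set, and neither passed. Of these targets 0 passed with either DMSO array left out or with no filter, while leaving out olaparib replicate 1 gave 3 higher and 1 lower. Leaving out olaparib replicate 2 gave 2 higher and 1 lower, with a median of 0.07.

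Of 18 mitosis genes 17 were tested, of which 0 rose, 2 fell and 15 did not pass. All 17 had a negative change, against 49.5% of all genes tested, and their median was -0.12. Plk1, a mitotic kinase, fell by 0.40 (SE 0.08, limma adjusted p = 0.00544) and Cdc20, an activator of the anaphase-promoting complex, by 0.30 (SE 0.09, limma adjusted p = 0.0436). With olaparib replicate 1 left out, 12 of the 17 were negative and the median was -0.08. With olaparib replicate 2 left out, 17 were negative, 5 fell and the median was -0.21. The count that fell was 0 without DMSO replicate 1 and 1 without DMSO replicate 2, under median centring or with no filter.

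Genes that respond to growth factor signalling, the input to cyclin D1, numbered 16, of which 4 rose, 0 fell and 12 did not pass, with a median of 0.20. The share called was 25%, against 6.22% of all genes tested. It was 12.1% of the other G1 to S regulators, 12.5% of E2F targets, 11.8% of mitosis genes and 12.5% of FoxO and growth arrest genes. Changes were positive in 14 and negative in 2. The negative ones, named after their values were seen, were Dusp4 (-0.26) and Spry2 (-0.04), and neither passed. Etv1 and Etv5, named likewise, had 2 probe sets each. Etv1 was at 0.27 on its brighter probe set (limma adjusted p = 0.182). On its other probe set Etv1 was at 0.39 and passed (limma adjusted p = 0.0304). Etv5 was at 0.18 and 0.16, neither past the threshold. Ier3, an early response gene, rose by 0.70, the AP-1 genes Fosl1 and Fos by 0.51 and 0.34, and Spred1, an inhibitor of the Ras pathway, by 0.42 (limma adjusted p = 8.15e-05, 0.000660, 0.0116 and 0.0253). The median was 0.33, with 11 higher, without olaparib replicate 1 and 0.08, with 4 higher and 1 lower, without olaparib replicate 2, and 2 rose with either DMSO array left out. Of 16 FoxO and growth arrest genes, 2 rose, 0 fell and 14 did not pass, with a median of -0.04. Those that rose were Klf6, a zinc finger factor, by 0.58, and Gadd45b, a stress-induced gene, by 0.52 (limma adjusted p = 0.000967 and 0.000842). The median was -0.02, with 4 higher and 1 lower, without olaparib replicate 1, and 3 were lower without olaparib replicate 2. Among the genes of the last 4 lists, leaving out either DMSO array ended the calls of Rrm2, Chaf1a, Slbp, Cdc20, Fos and Spred1, and leaving out DMSO replicate 1 those of Plk1 and Klf6. Leaving out olaparib replicate 2 also ended those of Rrm2 and Chaf1a, and olaparib replicate 1 that of Slbp. None of these calls held when all probe sets shared the variance estimate.

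**Figure D5:**
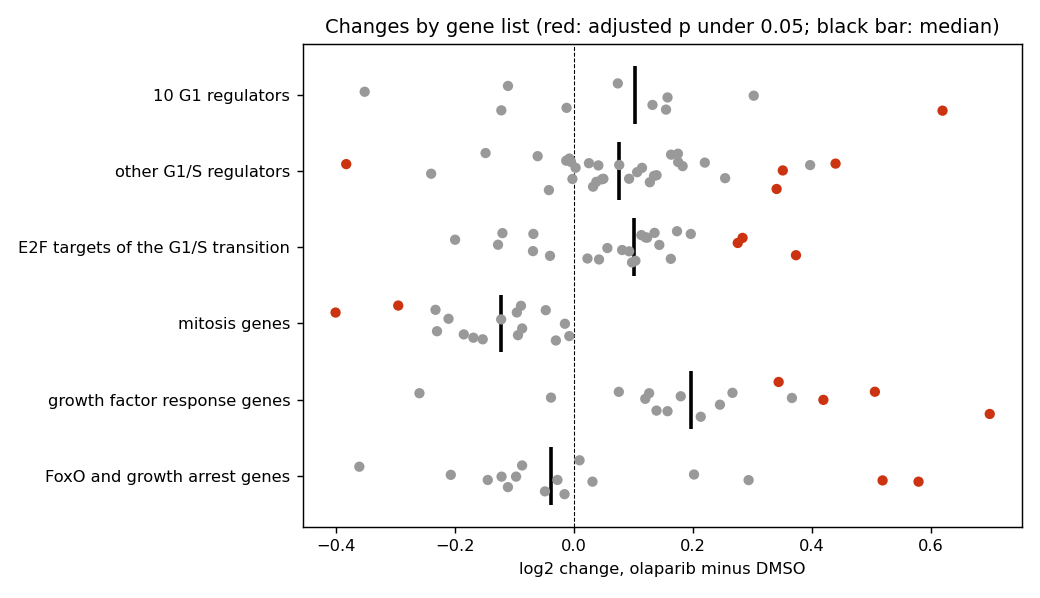
Log2 change, olaparib minus DMSO (horizontal axis), of every gene tested in 6 lists; points are genes (red for an adjusted p under 0.05), black bars are list medians, and vertical scatter within a row has no meaning. The medians are 0.10 for the G1 regulators, 0.10 for E2F targets, 0.20 for growth factor response genes and -0.12 for mitosis genes, all of whose points lie left of 0.

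The genes whose pattern over the 4 arrays lay nearest to that of Ccnd1 were Orc6, a subunit of the origin recognition complex, Ddias and Ube2ql1. Nearness was the Euclidean distance between each gene's deviations from its own mean, and was 0.067, 0.071 and 0.073 on the log2 scale. They rose by 0.61, 0.60 and 0.62. The call of Orc6 was lost without DMSO replicate 2 (adjusted p = 0.162), and all 3 calls were lost with all probe sets in the fit. Nearest to Cdk4 were Palm, Arhgef26 and Jam3, at distances of 0.015, 0.017 and 0.019. Their changes of -0.36, -0.34 and -0.34 passed in limma (adjusted p = 0.0125, 0.0415 and 0.0343), while the like change of Cdk4 did not. All 3 calls were lost when either DMSO array was left out and when all probe sets shared the variance estimate (adjusted p up to 0.153, 0.450 and 0.393), and those of Arhgef26 and Jam3 also with no filter and under median centring. The SE assigned to Cdk4 was 0.12, and it was 0.085, 0.098 and 0.094 for these 3 dimmer genes. Over 4 arrays such likeness mostly restates a like difference between the groups.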

How the data were processed

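Total RNA (40 ng) was amplified and hybridised to Affymetrix mouse gene arrays, per the labels' protocols. The authors deposited log2 values for each probe set and array. Background correction, normalization, summarisation and array batches are not given in the sources used here. The platform annotation gives a single gene for 21640 of 34760 probe sets, several for 1321 and none for 11799. Symbols were updated through the RefSeq table of GRCm38.p6 (19855 of 19937 genes matched). Promoter windows were found there for 6 of the 10 genes. Genes whose mean exceeded the 30th percentile, a log2 value of 6.42, entered a two-sided limma fit (version 3.58.1 in R 4.3.3, eBayes with an intensity trend), and p-values were adjusted by Benjamini-Hochberg across the 13956 genes. Every adjusted p comes from limma unless called exact. The fit was also run on simulated independent normal values, with variances drawn from a prior fitted to these data. Such values meet the assumptions of limma, so that run says nothing on the calls made here. Members, lists and alternatives were chosen with earlier results of these data known. The text names all 10 members, from other lists genes past the threshold (up to 4 per direction by smallest p), Ccne1, Ccne2, E2f1 and Myc in any case, and the 3 genes nearest to Ccnd1 and to Cdk4. The alternatives, described in the closing section, were other filters, normalizations, variance priors, probe set rules and thresholds, and leaving out each array. Figures used matplotlib 3.10.9 under Python 3.11.15.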

Additional observations from a re-analysis of the deposited data

How the results depend on the processing

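The small number of arrays is the main limit, with 2 residual degrees of freedom and a prior worth 18.1. Of the 10 G1 regulators, the count that rose was 1 under most alternatives, 0 with all probe sets in the fit and between 0 and 2 with 1 array left out. The count that fell was 0 and became 1 under quantile normalization, cyclic loess, eBayes without trend, an adjusted p under 0.1 and the dimmer Cdkn1b probe set (added after seeing the data), and lay between 0 and 1 with 1 array left out. Over all genes, 397 rose and 471 fell. The counts higher were 257 with no filter, 1 with all probe sets in the fit, 606 at an adjusted p under 0.1 and 97 to 1274 with 1 array left out. The counts lower were 774 under quantile normalization, 732 under cyclic loess, 11 with all probe sets, 715 at an adjusted p under 0.1 and 161 to 1032 with 1 array left out. Without a DMSO array the spread comes from the olaparib pair alone (median SD 0.077, against 0.048 for DMSO). Without an olaparib array it comes from the tighter DMSO pair alone. Cdkn1b changed sign, to -0.11 with the mean of its probe sets and -0.51 with the dimmer one. Cdkn1c changed sign without DMSO replicate 1 (0.044) and without olaparib replicate 2 (0.083), and the cause was not tested. Of 598 values over 40 named genes and their alternatives, 500 kept direction and side of the threshold, 82 lost a call, 13 gained one and 3 reversed. Most alternatives leave a gene's change as it was by design, and separated groups fix its sign with 1 array left out. The counts thus say little on direction. No paired analysis was possible because nothing in the labels ties an array of one group to an array of the other, and replicates were numbered in accession order.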
